A study of Homo sapiens with 2 samples.

Results

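The solute carrier family SLC25 and the sideroflexins (SFXN) are 2 sets of proteins, many of which carry metabolites across the inner mitochondrial membrane. Genes were taken as members where the deposited gene name begins with SLC25A and a number or with SFXN and a number, which gave 48 genes (43 SLC25 and 5 SFXN) of the 25240 in the tables, with 71 annotated transcripts. The series holds 2 libraries of T47D, a human luminal A breast cancer cell line, with 1 library per group. The control library (shNT) came from cells given a non-targeting short hairpin, and the other (shRON) from cells given a hairpin against RON, the receptor tyrosine kinase encoded by MST1R. Both groups were transduced, selected in 5 ug/mL puromycin, held in 1 ug/mL and grown in high-glucose DMEM with 10% serum. The name of the control table calls the cells wild type, and the label was followed. The comparison asks which carrier transcripts differ in level when RON is targeted, and every difference below is between these 2 libraries.

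As background, SLC25 carriers are built of repeated pairs of membrane helices and usually exchange a substrate of the matrix for a substrate of the intermembrane space. They let ADP and phosphate in and ATP out, move citrate, malate, glutamate and aspartate between compartments, and bring in the cofactors, iron and amino acids that matrix enzymes use. Sideroflexins form a separate family with a different fold, and SFXN1 is known as a carrier of serine for mitochondrial one-carbon metabolism.

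In the shRON library 3 members, all sideroflexins, were lower by 1.5-fold or more, and 0 were higher by that size. SFXN3 was lowest, at a FPKM ratio of 0.251, followed by SFXN2 at 0.585 and SFXN1 at 0.603. In bulk RNA, less transcript per cell and fewer cells that make it cannot be told apart. The 38 measured SLC25 carriers stayed within 1.5-fold on the FPKM + 1 scale of the size rule given below. By plain FPKM ratio some were past it, among them SLC25A18 at 0.618 and SLC25A16 at 1.52. The summed level of the carriers was 1101 FPKM in shNT against 1074 FPKM in shRON. Under 5 of 11 alternative settings at least 1 SLC25 carrier was past that size. FPKM is a number of fragments scaled to transcript length and to the library's fragment total, so levels of different genes can be set side by side. A gene was counted as measured at 1 FPKM or more in at least 1 library. The size rule was applied to the log2 ratio of FPKM + 1, shRON over shNT, which pulls the ratios of low genes towards 0. Across all 12483 measured genes 8.84% were lower and 9.95% higher by this rule, so 3 lower of 42 measured members (7.14%) is a share near the background.

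The sequences before the sideroflexin genes are shown because 3 of the 4 measured sideroflexins were lower together and the fourth, SFXN4, was not. Each runs from 250 bases before to 50 bases after the gene start in RefSeq (GRCh38.p14), reads 5′ to 3′ on the gene's strand, and was found by exact match in hg19, the build of the tables. The hg19 positions are chr5:174905313-174905612 for SFXN1, chr10:104474143-104474442 for SFXN2, chr10:102790741-102791040 for SFXN3 and chr10:120925155-120925454 for SFXN4, the last on the minus strand and the others on the plus strand. Capitals mark every match, on either strand, to the GC box GGGCGG, the CCAAT box CCAAT or the E box CACGTG.
SFXN1: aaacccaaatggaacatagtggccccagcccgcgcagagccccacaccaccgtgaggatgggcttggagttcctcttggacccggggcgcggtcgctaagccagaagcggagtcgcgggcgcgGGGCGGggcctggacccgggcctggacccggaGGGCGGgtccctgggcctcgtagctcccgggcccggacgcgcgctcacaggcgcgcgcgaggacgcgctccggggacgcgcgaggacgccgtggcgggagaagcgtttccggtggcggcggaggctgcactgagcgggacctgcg
SFXN2: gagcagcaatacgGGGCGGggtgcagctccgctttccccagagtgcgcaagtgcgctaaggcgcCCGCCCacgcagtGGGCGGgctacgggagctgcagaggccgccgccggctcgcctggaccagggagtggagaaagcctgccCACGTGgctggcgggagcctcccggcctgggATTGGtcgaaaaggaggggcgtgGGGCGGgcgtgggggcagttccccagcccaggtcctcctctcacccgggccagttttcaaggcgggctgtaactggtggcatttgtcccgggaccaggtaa
SFXN3: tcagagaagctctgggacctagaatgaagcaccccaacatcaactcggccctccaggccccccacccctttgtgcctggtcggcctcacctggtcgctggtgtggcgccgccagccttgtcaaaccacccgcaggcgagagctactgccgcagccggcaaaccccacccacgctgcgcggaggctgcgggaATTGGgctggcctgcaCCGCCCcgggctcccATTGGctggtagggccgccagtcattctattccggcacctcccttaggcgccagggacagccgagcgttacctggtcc
SFXN4: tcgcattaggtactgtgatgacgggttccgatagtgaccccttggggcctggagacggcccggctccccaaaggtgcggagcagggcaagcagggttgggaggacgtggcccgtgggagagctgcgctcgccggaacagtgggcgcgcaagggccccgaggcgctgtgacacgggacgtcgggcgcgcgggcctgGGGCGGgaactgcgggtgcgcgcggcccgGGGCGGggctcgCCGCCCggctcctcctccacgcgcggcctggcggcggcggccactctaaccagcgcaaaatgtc
All 4 windows held at least 1 GC box. This motif was found in 44.95% of the 35116 promoters of this length in the table and in 66.0% of the 53 promoters of members. The CCAAT box, present in 34.6% of all promoters and 50.9% of the members', occurred in SFXN2 and SFXN3 in its reverse form ATTGG. The E box, present in 7.26% and 17.0%, occurred in SFXN2. The NRF1 core GCATGCG, the ETS motif CCGGAAG and the TATA motif TATAAA, present in 3.91%, 10.3% and 11.5% of all promoters, did not occur in these 4 windows on either strand, and no match overlapped a match of another motif. Of the members' promoters 1.89%, 18.9% and 7.55% held the NRF1 core, the ETS motif and the TATA motif. A match is a description of these letters only. The transcript in the deposited tables begins 49 bases upstream of the RefSeq start for SFXN1, 95 bases upstream for SFXN2, 5 bases downstream for SFXN3 and at the same base for SFXN4. For SFXN4 2 RefSeq starts were available, and the one nearest the deposited transcript start is shown. The match at SFXN4 therefore follows in part from that choice.

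SFXN3, a sideroflexin that can carry serine as SFXN1 does, stood at 11.2 FPKM in shNT against 2.82 FPKM in shRON, a log2 ratio of -1.68. The FPKM ratio of 0.251 rested on an estimated 515 and 130 fragments and had an approximate 95% counting interval of 0.206 to 0.305, which covers counting error only and not the spread between cultures. SFXN3 was the only member past 2-fold, a size reached by 2.17% of measured genes in the lower direction. It is a protein-coding gene on chromosome 10 (102790996 to 102800998, plus strand). Its neighbours were lower as well: the median log2 ratio of the 20 measured genes on either side was -0.52, with quartiles at -0.69 and -0.40. SFXN3 lay below all 40 of them, at -1.16 relative to their median.

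SFXN2, which has been linked to mitochondrial iron and haem handling, was at 27.4 FPKM in shNT against 16.1 FPKM in shRON, a log2 ratio of -0.74. It was the most abundant sideroflexin in both libraries, and its FPKM ratio had a counting interval of 0.528 to 0.649. It is transcribed from the plus strand of chromosome 10 (104474298 to 104498946), and SFXN3 ends 1673300 bases before it. The median of its neighbours was -0.43, and 38 of the 40 had a higher ratio than SFXN2. Relative to that median SFXN2 was at -0.31, inside 1.5-fold.

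SFXN1, the serine carrier, was at 14.9 FPKM in shNT against 9.01 FPKM in shRON, a log2 ratio of -0.67 with a counting interval of the FPKM ratio of 0.530 to 0.684. It lies on another chromosome, 5, from 174905514 to 174955621 on the plus strand. Its neighbours had a median of -0.27, 10 of the 40 were themselves lower by 1.5-fold, and relative to that median SFXN1 was at -0.40, also inside 1.5-fold. SFXN1, SFXN2 and SFXN3 thus each sat among neighbours whose median ratio was below 0. The neighbours of SFXN2 and SFXN3 are in part the same genes, from MGEA5 to CUEDC2, so their 2 medians are not separate observations. The part of these neighbourhoods in the lower sideroflexin levels was not tested.

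SFXN4, a protein needed for respiratory complex I, was at 9.28 FPKM in shNT against 10.4 FPKM in shRON (log2 ratio 0.15), and its counting interval of 0.917 to 1.38 held a ratio of 1. It lies further along chromosome 10, from 120900425 to 120925204 on the minus strand, where the median of the neighbours was 0.19. SFXN5 was low, at 0.494 and 0.583 FPKM, and was not counted as measured. The 5 sideroflexins summed to 63.4 FPKM in shNT against 38.9 FPKM in shRON, which was 5.44% and 3.50% of the FPKM of all members.

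**Figure D1:**
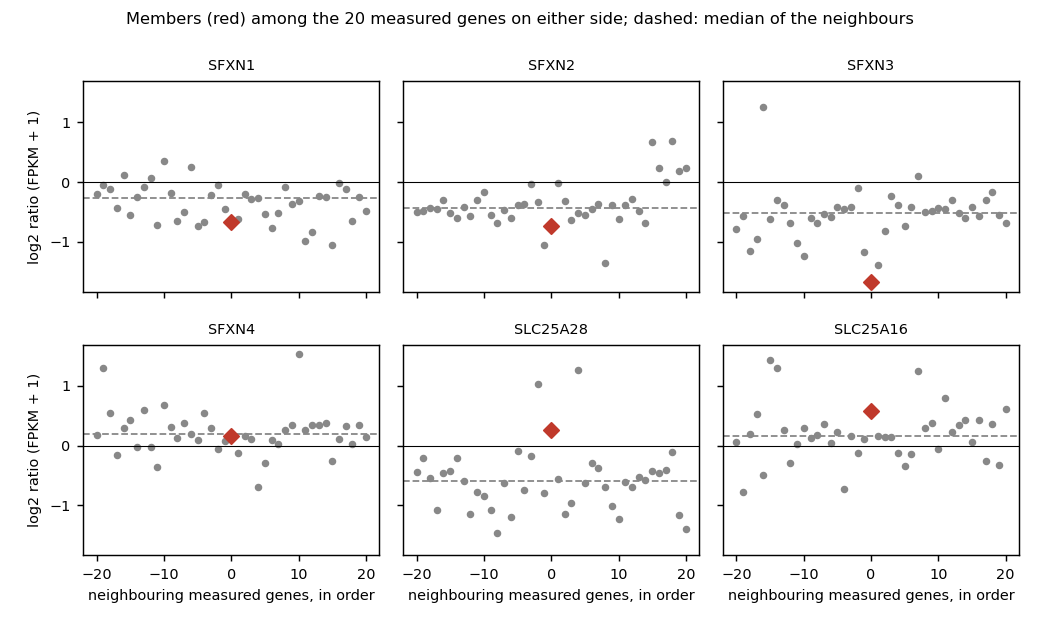
Log2 ratio of FPKM + 1, shRON over shNT, of 6 members (red diamonds) and of the 20 measured genes on either side of each in chromosome order (grey points; dashed line, their median). SFXN3 lies below all its neighbours, SFXN1 and SFXN2 below most of theirs, SFXN4 close to its neighbours' median of 0.19, and SLC25A28 above a median of -0.60.

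Levels of the carriers spanned a wide range in both libraries. The median measured member stood at 13.3 FPKM in shNT against 11.8 FPKM in shRON, against 9.02 and 9.39 for all measured genes. SLC25A3, SLC25A6, SLC25A39 and SLC25A5 were the 4 most abundant members and together held 57.6% of the members' FPKM in shNT and 58.4% in shRON. SLC25A3 led in shNT and SLC25A6 in shRON. At the other end, 6 members did not reach 1 FPKM in either library: SFXN5, SLC25A2, SLC25A21, SLC25A31, SLC25A34 and SLC25A41, with values from 0 to 0.897 FPKM. SLC25A31, the translocase of the male germline, was listed at 0 in both, where 3 fragments would correspond to 0.139 FPKM in shNT against 0.144 FPKM in shRON. The 42 measured members reached 1 FPKM in both libraries, so none passed the filter through 1 library alone.

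**Figure D2:**
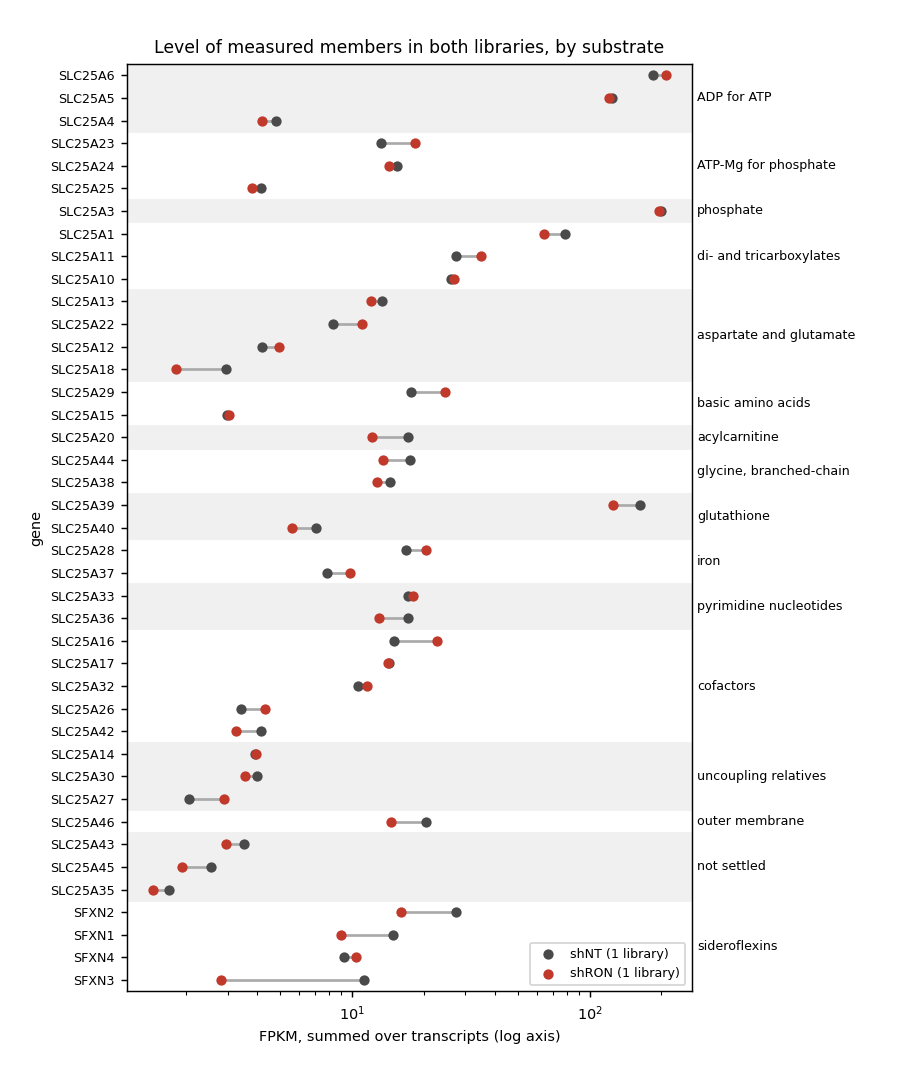
FPKM of 41 measured members on a log axis in the shNT library (dark) and the shRON library (red), grouped by substrate, with a grey line joining both values of a gene. SLC25A3, SLC25A6, SLC25A39 and SLC25A5 lie above 100 FPKM in both libraries, and the longest line belongs to SFXN3.

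The adenine nucleotide translocases, which exchange cytosolic ADP for matrix ATP, differed little between the libraries. SLC25A6 was at 185 FPKM in shNT against 209 FPKM in shRON (log2 ratio 0.18, counting interval of the FPKM ratio 1.09 to 1.18). SLC25A5 was at 124 and 121 FPKM (-0.04), and SLC25A4, the form typical of heart and skeletal muscle, at 4.78 and 4.17 (-0.16). SLC25A5 is known as the form of proliferating cells and SLC25A6 as a widely expressed form, and these were the abundant ones in both libraries. The 4 translocase genes held 26.9% of the members' FPKM in shNT and 30.0% in shRON. SLC25A6 lies in the pseudoautosomal region, so its neighbourhood here had 26 genes, with a median of 0.39. No stretch of 100 bases of the longest GENCODE transcript of any of the 3 measured translocases was shared with a transcript of another gene, and the sources used here do not say how reads with several matches were placed.

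Phosphate is brought in for ATP synthesis by SLC25A3, which was at 199 FPKM in shNT against 195 FPKM in shRON. Its log2 ratio of -0.03 and counting interval of 0.940 to 1.02 made it the most precisely measured member, from an estimated 5054 and 4846 fragments. Transcripts of 1678 bases carried 94.7% of its FPKM in shNT and 94.1% in shRON. The calcium-regulated carriers of ATP-magnesium and phosphate adjust the adenine nucleotide pool of the matrix. Of them SLC25A23 was at 13.3 and 18.4 FPKM (log2 ratio 0.44, counting interval 1.25 to 1.53), SLC25A24 at 15.4 and 14.3 (-0.11) and SLC25A25 at 4.15 and 3.79 (-0.11). SLC25A23 thus had a higher value in shRON and the others slightly lower ones, all inside 1.5-fold.

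Carriers of citrate, dicarboxylates and oxoacids link the citric acid cycle with the cytosol. SLC25A1 exports citrate, the carbon source of cytosolic acetyl-CoA, and was at 78.7 FPKM in shNT against 64.2 FPKM in shRON (-0.29, counting interval 0.760 to 0.874), below a neighbourhood median of 0.13. SLC25A11, which exchanges oxoglutarate for malate in the malate-aspartate shuttle, was at 27.4 and 34.9 FPKM (0.34, counting interval 1.15 to 1.41). The dicarboxylate carrier SLC25A10 was at 26.1 and 26.9 FPKM (0.04). The 3 measured carriers of this group therefore pointed in different directions, and 55.5% of the 100-base stretches of SLC25A10 also occur in a transcript of another GENCODE gene, which leaves its value less certain.

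Glutamate and aspartate carriers showed the same mixture. SLC25A13 and SLC25A12, which export aspartate in exchange for glutamate and complete the malate-aspartate shuttle, were at 13.4 and 12.01 FPKM (-0.15) and at 4.18 and 4.95 FPKM (0.20). SLC25A22, a glutamate carrier, was at 8.36 FPKM in shNT against 11.1 FPKM in shRON (0.37, counting interval 1.14 to 1.53). SLC25A18, its relative, was at 2.95 and 1.82 FPKM (-0.49) from an estimated 94 and 53 fragments. Its plain FPKM ratio was 0.618, with a wide counting interval of 0.433 to 0.874. Its neighbourhood held 27 genes with a median of 0.19, so relative to it SLC25A18 was at -0.67.

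Among carriers of other amino acids, SLC25A29, which carries basic amino acids, was at 17.7 FPKM in shNT against 24.7 FPKM in shRON (0.46, counting interval 1.25 to 1.55). The ornithine carrier SLC25A15, part of the urea cycle in liver, was at 2.99 and 3.04 FPKM (0.02). SLC25A38, which brings in glycine for haem synthesis, was at 14.4 and 12.8 FPKM (-0.16), and SLC25A44, a carrier of branched-chain amino acids, at 17.5 and 13.5 (-0.36, counting interval 0.695 to 0.847). SLC25A29 was the higher and SLC25A44 the lower end of this group.

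Fatty acids enter the matrix as acylcarnitines through SLC25A20. It was at 17.1 FPKM in shNT against 12.1 FPKM in shRON, a log2 ratio of -0.47 with a counting interval of 0.612 to 0.813. The median of its neighbours on chromosome 3 (48894356 to 48936402, minus strand) was 0.19, 38 of the 40 had a higher ratio, and relative to that median SLC25A20 was at -0.66. SLC25A20 was therefore inside 1.5-fold as measured and past it relative to its neighbourhood.

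Both glutathione carriers had lower values in the shRON library. SLC25A39, which imports glutathione into the matrix, was at 163 FPKM in shNT against 125 FPKM in shRON, with a log2 ratio of -0.38 and a counting interval of 0.729 to 0.803. SLC25A40, its close relative, was at 7.07 and 5.61 FPKM (-0.29, counting interval 0.673 to 0.937). The neighbourhood medians were -0.16 for SLC25A39 and 0.16 for SLC25A40. Under the alternative settings given below, the log2 ratio ranged from -0.42 to -0.19 for SLC25A39 and from -0.45 to -0.18 for SLC25A40. Neither reached 1.5-fold, and together they made up 14.6% of the members' FPKM in shNT and 11.7% in shRON. SLC25A40 overlaps the measured gene DBF4, and the sources used here do not say whether the library kit kept strand.

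Both mitoferrins, which bring iron into the matrix for haem and iron-sulphur clusters, had higher values in shRON. SLC25A28 was at 16.9 FPKM in shNT against 20.5 FPKM in shRON (0.27, counting interval 1.06 to 1.39), and SLC25A37, the form prominent in erythroid cells, at 7.89 and 9.83 (0.29, counting interval 1.03 to 1.503). SLC25A28 lies on the minus strand of chromosome 10 (101370275 to 101380221), 1410775 bases before SFXN3. There the median of the 40 neighbours was -0.60 and 21 of them were lower by 1.5-fold, so relative to its neighbourhood SLC25A28 was at 0.87. It thus went the other way from SFXN3 and SFXN2 within the same stretch of the chromosome. Many of its neighbours, from GOT1 to KAZALD1, are also neighbours of SFXN3.

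Pyrimidine nucleotides for mitochondrial DNA and RNA synthesis are carried by SLC25A33 and SLC25A36. SLC25A33 was at 17.2 FPKM in shNT against 18.1 FPKM in shRON (0.07), whereas SLC25A36 was at 17.3 and 13.0 (-0.38, counting interval 0.690 to 0.824) in a neighbourhood with a median of -0.28. In the longest GENCODE transcript of SLC25A33, 12.2% of the 100-base stretches also occur in a transcript of another gene.

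Cofactor carriers held the highest ratio of the measured members. SLC25A16, linked to coenzyme A supply, was at 15.1 FPKM in shNT against 22.9 FPKM in shRON, with a FPKM ratio of 1.52 and a counting interval of 1.36 to 1.69. On the FPKM + 1 scale its log2 ratio was 0.57, just inside the bound of 0.58. It also lies on chromosome 10 (70242097 to 70287584, minus strand), in a neighbourhood with a median of 0.16. SLC25A42, the other coenzyme A carrier, was at 4.15 and 3.26 FPKM (-0.27, counting interval 0.632 to 0.975), so these carriers differed in direction. SLC25A17, a peroxisomal member of the family, was at 14.3 and 14.2 FPKM (-0.01). SLC25A32, which carries folate or flavin, was at 10.6 and 11.6 FPKM (0.12), overlaps the measured gene DCAF13 and shares 87.7% of its 100-base stretches with another GENCODE gene. SLC25A26, the S-adenosylmethionine carrier, was at 3.41 and 4.33 FPKM (0.27) and overlaps LRIG1, which was at 47.8 and 40.6 FPKM. With its most abundant transcript only, the log2 ratio of SLC25A26 was -0.39, so its direction turned.

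The relatives of uncoupling proteins were low. SLC25A14 was at 3.90 and 3.97 FPKM, SLC25A30 at 3.99 and 3.55, and SLC25A27 at 2.06 and 2.89 (log2 ratios 0.02, -0.13 and 0.34). SLC25A46, which sits in the outer membrane and takes part in mitochondrial shape, was at 20.5 FPKM in shNT against 14.6 FPKM in shRON (-0.46, counting interval 0.634 to 0.799), in a neighbourhood with a median of -0.29. The measured carriers whose substrate is not settled, SLC25A43 (3.52 and 2.95 FPKM), SLC25A45 (2.55 and 1.92) and SLC25A35 (1.70 and 1.46), had log2 ratios from -0.28 to -0.13. SLC25A35 overlaps the measured gene RANGRF.

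**Figure D3:**
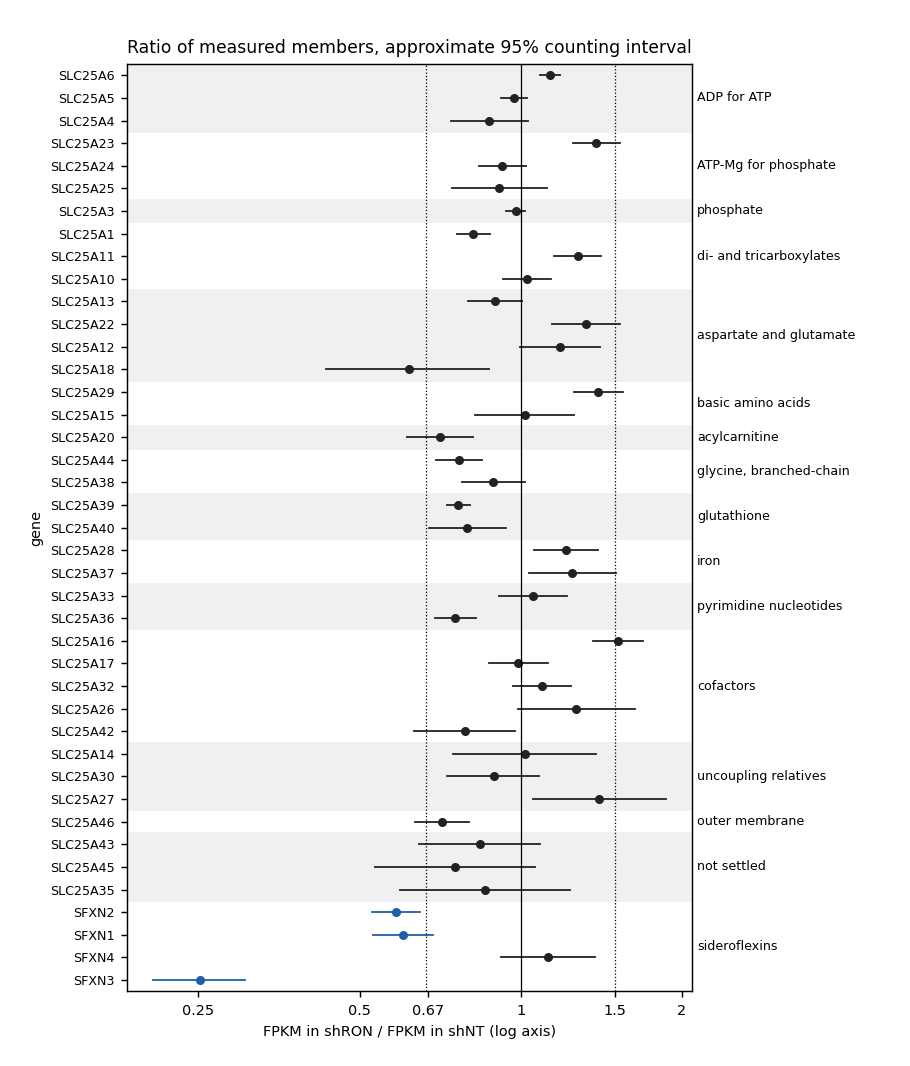
Ratio of FPKM, shRON over shNT, of 41 measured members on a log axis with approximate 95% counting intervals, grouped by substrate; dotted lines mark 1.5-fold either way. The 3 members in blue, SFXN1, SFXN2 and SFXN3, are those lower by 1.5-fold on the FPKM + 1 scale, and SLC25A16 at 1.52 is the highest.

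Over the 42 measured members the median log2 ratio was -0.11, with quartiles at -0.29 and 0.17, against a median of 0.04 and quartiles at -0.25 and 0.30 over all measured genes. Of the members 25 had a ratio below 0 (59.5%, against 46.1% of all measured genes) and 17 a ratio above 0. Counting intervals of 22 members did not hold a ratio of 1, and those of 20 did. The share over all measured genes was not computed for these intervals. They cover counting error only, so the 22 cannot be read as particular to the members. A share of 45.2% of members lay within 0.25 of 0, close to 45.7% of all genes. The members as a set thus had a median slightly below that of all genes.

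**Figure D4:**
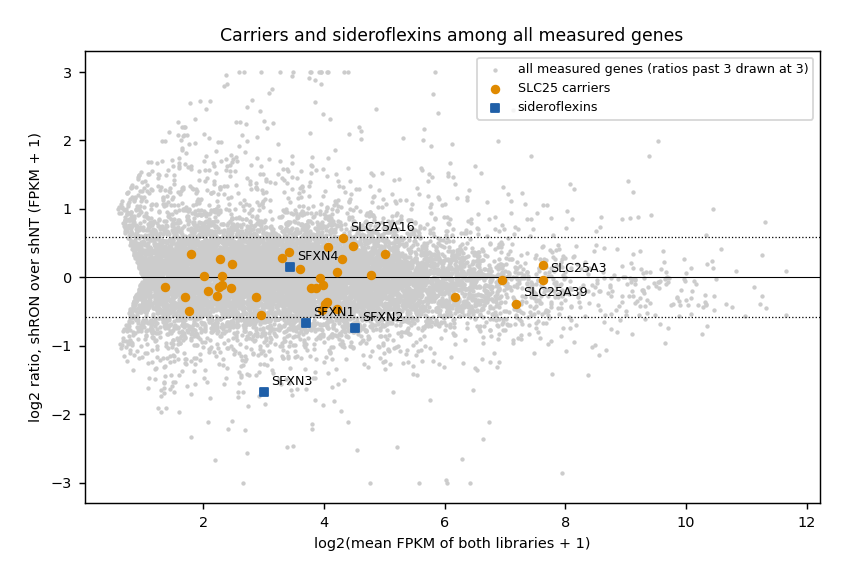
Log2 ratio of FPKM + 1 against the log2 mean level for all 12483 measured genes (grey), the SLC25 carriers (orange circles) and the sideroflexins (blue squares); dotted lines mark 1.5-fold, and ratios past 3 are drawn at 3. All orange points lie between the dotted lines, and 3 of the 4 blue squares lie below the lower line.

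The division of FPKM among the annotated transcripts of a gene shifted in several carriers whose total stayed within 1.5-fold. The authors' program estimates this division, so it is less certain than the sum, and 15 members had more than 1 annotated transcript. In SLC25A39 the transcript of 1610 bases was at 46.5 FPKM in shNT against 22.6 FPKM in shRON, while that of 1586 bases was at 117 and 102. The lower total of SLC25A39 therefore lay mostly in the longer form, whose share went from 28.4% to 18.1%. In SLC25A1 the coding transcript of 1600 bases was at 69.2 and 48.6 FPKM, whereas the noncoding transcript of 1526 bases was at 9.56 and 15.6. The coding form alone thus had a log2 ratio of -0.50, below that of the sum.

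SLC25A26 showed the largest such shift. Its transcript of 2317 bases held 91.8% of the gene's FPKM in shNT and 49.5% in shRON, and a transcript of 2141 bases went from 0.218% to 44.2%, on an estimated 0 and 60 fragments. SLC25A45 behaved alike at a lower level, with its transcript of 2231 bases at 0.0187% of the gene's FPKM in shNT and 32.1% in shRON, on 0 and 20 fragments. In SLC25A22 the transcript of 2959 bases held 16.8% in shNT and 3.66% in shRON, and that of 2796 bases 4.03% and 15.04%. In SLC25A36 the transcript of 4658 bases was at 1.17 FPKM in shNT and near 0 in shRON. No member transcript carried a failed or low-data status in either library.

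**Figure D5:**
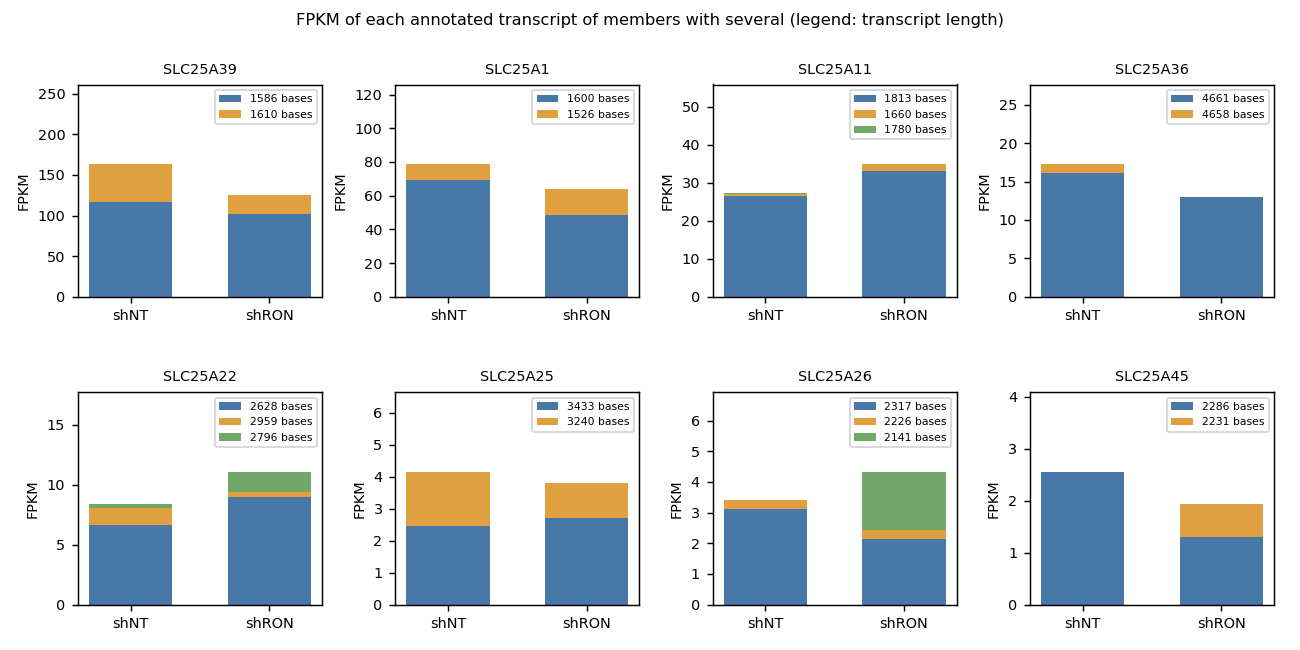
Stacked bars of FPKM of each annotated transcript, named by its length, of 8 members with several transcripts in the shNT and shRON libraries; transcripts under 0.01 FPKM in both are not drawn. The 1610-base form of SLC25A39 is smaller in shRON, and the 2141-base form of SLC25A26 is visible in the shRON bar alone.

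Genes that work with these carriers were taken from a list of 66, of which 60 were measured. Of these 9 were lower and 1 higher by 1.5-fold, beside 8.84% and 9.95% of all measured genes, and their median log2 ratio was -0.12. In the malate-aspartate shuttle both aspartate aminotransferases were lower: GOT2, the mitochondrial enzyme, at 51.0 FPKM in shNT against 23.7 FPKM in shRON (-1.07), and GOT1, the cytosolic enzyme, at 48.1 and 27.4 (-0.79). Their neighbourhoods on chromosomes 16 and 10 had medians of -0.70 and -0.59, and relative to these neither was past 1.5-fold. The carriers of the shuttle, SLC25A11, SLC25A12 and SLC25A13, were inside 1.5-fold as given above. ACLY, which splits the citrate exported by SLC25A1, was at 135 and 78.7 FPKM (-0.77, neighbourhood median -0.19).

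In the carnitine system CRAT, carnitine acetyltransferase, was at 33.9 FPKM in shNT against 17.8 FPKM in shRON (-0.89, neighbourhood median -0.24). CPT1B, the muscle form of the outer-membrane acyltransferase, was at 4.38 and 8.19 FPKM (0.77), and it overlaps a measured readthrough gene. The outer-membrane import receptors TOMM20 (105 to 55.4 FPKM, -0.91) and TOMM70A, which recognises carrier precursors (48.7 to 31.0, -0.63), were the 2 of the 12 import genes lower by 1.5-fold. Their neighbourhood medians were -0.35 and -0.36. TOMM22, another outer-membrane receptor, was level at 42.9 and 43.0 FPKM, and the channel gene TOMM40 was at 29.2 and 22.03 FPKM (-0.39, counting interval 0.674 to 0.845). TIMM22, the core of the translocase that inserts carriers into the inner membrane, was at 12.01 and 13.4 FPKM (0.15).

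In haem synthesis and iron uptake CPOX (5.97 to 2.69 FPKM, -0.92) and the transferrin receptor gene TFRC (489 to 310.1, -0.66) were lower. Their neighbourhood medians were -0.33 for CPOX and -0.12 for TFRC. GLUD1, glutamate dehydrogenase, was at 55.7 and 35.9 FPKM (-0.62) in a chromosome 10 neighbourhood with a median of -0.34. No member of the other groups was past 1.5-fold: family members under other symbols such as UCP2 (46.6 and 53.8 FPKM), the pyruvate carrier, the calcium uniporter, the voltage-dependent anion channels, and the serine and one-carbon enzymes of mitochondria. The last group includes SHMT2, which uses the serine that SFXN1 carries and was at 57.2 and 48.6 FPKM (-0.23). The pyruvate carrier subunit BRP44 (MPC2) came nearest, at 89.5 and 60.3 FPKM (-0.56).

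Depth was estimated at 11900000 fragments for shNT and 11500000 for shRON, and measured members on an estimated 53 to 5054 fragments. MST1R, the hairpin's target, was at 12.1 FPKM in shNT against 9.10 FPKM in shRON (log2 ratio -0.38), inside 1.5-fold, with a counting interval of 0.675 to 0.832. The 9 luminal markers were between 23.7 and 3839 FPKM in both libraries and summed to 8781 FPKM in shNT against 6516 FPKM in shRON. The progesterone receptor gene PGR was at 76.7 and 35.1 FPKM, ESR1 at 36.7 and 23.7, and CDH1 at 163 and 100.1. The keratin genes KRT8 (3839 and 2634), KRT18 (1465 and 1113) and KRT19 (2719 and 2079) were lower as well. GATA3 (223 and 269), FOXA1 (143 and 144) and EPCAM (115 and 119) were not lower in shRON. The part of the luminal markers in the members' ratios was not tested. Of the 5 immune markers 4 and of the 4 endothelial markers 3 were listed at 0 in both, and none reached 1 FPKM. The 5 fibroblast markers summed to 4.12 FPKM in shNT against 5.83 FPKM in shRON. Of them 2 reached 1 FPKM in at least 1 library: COL1A1 at 3.95 and 4.27 FPKM, and COL3A1 at 0.0103 and 1.53.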

How the data were processed

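RNA was measured in 2 libraries, 1 per group, grouped by the treatment label; TRIZOL-extracted total RNA was made into libraries with an Illumina TruSeq RNA kit, per the labels' protocols. The deposited tables list FPKM and coverage for 37839 RefSeq transcripts, with the columns of a Cufflinks table per the file headers. The build hg19 and DESeq, without a role, are named in the submitters' processing notes. The sources used here name no aligner, version or scaling between libraries. Coverage as deposited by the authors was read as mean depth per base.

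FPKM was summed per gene, and small RNA genes were left out. The filter was 1 FPKM in at least 1 library, the pseudocount 1 and the size rule 1.5-fold. With 1 library per group no test was possible, and no p-value is given. Fragments were estimated as coverage times length, divided by the bases of a read pair (median 244 in shNT and 241 in shRON, from genes of about 1 pair, with products between set bounds of 150 and 325 bases). Intervals are Clopper-Pearson at 95% on these estimates, approximate and for counting error only. Neighbourhood medians used the 20 measured genes on either side, members left out, or fewer near a chromosome end. File starts were counted from 0 and are given from 1. Strand came from GENCODE on GRCh37. Promoters were matched by symbol for 40 of 48 members. All members with 1 FPKM are named except 1, which is counted but not reported here, and of the partner genes those past 1.5-fold, plus UCP2, TIMM22, TOMM22, TOMM40, SHMT2 and BRP44, which were chosen after their values were seen. Members and lists were chosen with earlier results of these data known. The calculations, in Python 3.11.15 with pandas 2.3.3 and scipy 1.17.1, were tested on simulated data.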

Additional observations from a re-analysis of the deposited data

How the results depend on the processing

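The members were recomputed under 11 alternative settings. SFXN3, SFXN2 and SFXN1 kept log2 ratios below 0 in all of them, with ranges of -1.95 to -1.05, -0.78 to -0.31 and -0.72 to -0.40. The count of 0 higher and 3 lower members was 1 (SLC25A16) and 5 (SLC25A18 among the added) with a pseudocount of 0.1. With that pseudocount 13.5% of all measured genes were higher and 11.8% lower. The count was 0 and 5 (SLC25A45 among the added) with the most abundant transcript of each gene only, beside 10.9% and 9.48% of all genes. Under this setting SLC25A26 turned from 0.27 to -0.39. Coverage in place of FPKM gave 1 higher member (SLC25A16) and the same 3 lower, beside 11.1% and 8.81% of all genes. With the trend of the ratio with level removed, 4 members were lower (SFXN1, SFXN2, SFXN3 and 1 SLC25 carrier), beside 9.61% of all genes. With a pseudocount of 5 SFXN1 was no longer past 1.5-fold, and 3.73% of all genes were lower. With neighbourhood medians subtracted, 1 member was higher (SLC25A28) and the 3 lower ones were SFXN3, SLC25A18 and SLC25A20. SFXN1 and SFXN2 were thus no longer counted, and the cause was not tested. The share over all genes was not computed for that setting. The members' median log2 ratio stayed between -0.17 and -0.04. Of 449 values of single members under the alternatives, 25 moved by more than their counting interval, 17 of them under subtraction of neighbourhood medians, and 16 had the opposite sign to the reported value.

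No paired analysis was possible because each group holds 1 library. For the same reason the spread between cultures is unknown, and no difference here has a replicate check. Depth limits the low members most: SLC25A18, SLC25A35 and SLC25A45 rested on an estimated 53 to 94 fragments per library.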
